A study of Mus musculus with 9 samples.

Results

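Interferon-induced genes and the genes of the immunoproteasome were followed in mouse liver after acetaminophen (APAP) overdose, with and without adipose-derived mesenchymal stem cells (AMSCs). The set held 43 genes chosen by name out of the 54532 genes of the expression table, and all 43 were found. By role these were 8 effectors of the type I interferon response (the Ifit and Oas genes and Isg15), 9 other antiviral effectors, 4 RNA sensors with their cofactors, 3 transcription factors, 12 GTPases inducible by interferon gamma, 5 antigen processing genes and 2 chemokines. RNA was sequenced from whole livers of male C57BL/6 mice of 5 to 7 weeks, 3 per group. The NC group was the control. The APAP group was fasted overnight, received 500 mg/kg APAP into the peritoneum and was studied at 6 h. The AMSC group received the same dose and, directly afterwards, AMSCs through the tail vein, and was also studied at 6 h. The AMSCs came from inguinal fat of C57BL/6 mice, so transcripts of the host and of the injected cells could not be told apart, and whether the NC mice were fasted was not given in the sources used here. Libraries are named by group and number (NC_1 to NC_3, APAP_1 to APAP_3 and AMSC_2 to AMSC_4).

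Interferons are secreted proteins that warn cells of infection and damage. Type I interferons (alpha and beta) act through the kinases JAK1 and TYK2 and mainly reach genes with an interferon-stimulated response element (ISRE), whereas interferon gamma acts through JAK1 and JAK2 and mainly reaches genes with a gamma-activated site (GAS). The Ifit, Oas and Isg15 genes are classical targets of the ISRE, and the guanylate-binding proteins (Gbp), the immunity-related GTPases (Igtp, Irgm, Iigp and Tgtp genes), Cxcl9 and the antigen processing genes are strongly induced by interferon gamma. In the liver, Kupffer cells, endothelial cells and hepatocytes all respond to both kinds.

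After APAP the members moved in both directions, as all genes tested did, whereas with AMSCs nearly all members were lower. In APAP against NC, 8 of the 34 members that could be tested rose (23.5%, against 12.8% of all genes) and 6 fell (17.6%, against 13.1%). In AMSC against APAP, 14 of 34 fell (41.2%, against 2.14% of all genes) and none rose (against 1.64%). In AMSC against NC, 20 fell (58.8%, against 11.9% of all genes) and 1, Cxcl10, rose (2.94%, against 14.1%). The 3 members that rose with APAP and fell below NC with AMSCs were Ifit2, Ifit3 and Cxcl9. Igtp fell in all 3 comparisons. In bulk tissue, fewer cells of a type and less RNA per cell cannot be told apart.

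These counts come from limma on log2 of FPKM + 1 (FPKM being sequenced fragments per length of gene and depth of library). The fit held the 9699 genes that averaged 1 FPKM or more, and an adjusted p up to 0.05 made a call. The fold changes below are on this scale, which understates the change of low genes. The 9 members under 1 FPKM were Oas2, Oasl2, Xaf1, Ifi44, Gbp4, Gbp6, Gbp9, Tgtp1 and Tgtp2, and 5 of the 34 tested, Ifit2, Ifit3b, Oas1a, Gbp2 and Gbp7, reached this mean only with the APAP libraries. Without these 5, 6 of 29 rose and 6 fell in APAP against NC, 11 fell in AMSC against APAP, and 17 fell and 1 rose in AMSC against NC. The libraries held 13418921 to 16210930 gene reads each (14920463 to 15444087 in NC and 13640978 to 14167230 in APAP), and a member held 4 to 4999 reads in a library, with a median of 150.0. The libraries of a group were described as biological replicates, and p-values measure the spread between them.

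In APAP against NC, 23.5% of the members tested rose, where 12.8% of all genes tested rose, and 17.6% fell, where 13.1% of all genes fell. The median log2 fold change was 0.03 over the members (-0.11 without the 5 named above) and -0.0043 over all genes. Values of the 2 groups did not overlap for 11 members that were higher (32.4%, against 20.9% of all genes) and for 11 that were lower (32.4%, against 22.3%). Ifit2, Ifit3b and Gbp2, which passed the filter only with the APAP libraries, were among the 11 that were higher. With any 1 library left out, 11 to 13 members were called, and 10 of the 14 calls were made in each of these 6 fits. Over all genes, 1353 to 2749 were called in these fits, against 2514 in the main one.

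In AMSC against APAP, 41.2% of the members fell, where 2.14% of all genes fell, and none rose, where 1.64% of all genes rose. The log2 fold change was negative for 33 of the 34 members, with Ifi35 (0.27 ± 0.14, adjusted p = 0.347) as the exception. Its median was -0.68 over the members and 0.013 over all genes. All 3 AMSC values lay under all 3 APAP values for 24 members (70.6%, against 12.4% of all genes), and above them for none, against 14.6% of all genes. Ifit2, Ifit3b, Oas1a, Gbp2 and Gbp7, which passed the filter only with the APAP libraries, are in all these values and among the 24. The filter favours a lower AMSC value for these 5. Without them 11 of 29 members fell, and the median was -0.64. In the same comparison all 8 markers of Kupffer cells and macrophages were lower too (median log2 fold change -1.27). So were all 7 sinusoidal endothelial markers (-0.75) and the 3 neutrophil markers tested (-1.32). Of the 6 stromal markers tested, 5 were lower (median -0.38), and of the 7 hepatocyte markers 4 were (-0.013). The part of these cell types in the changes was not tested. The number of calls depended on single libraries, for the members and for all genes. It was 11 without APAP_1, 9 without APAP_2, 7 without APAP_3, 5 without AMSC_2, 6 without AMSC_3 and 4 without AMSC_4. Of all genes, 2.42%, 1.9%, 0.784%, 0.629%, 0.608% and 0.577% fell in these fits, in the same order. Ifit2, Ifit3, Gbp3 and Cxcl9 were called in each of them, Ifit2 being among the members that passed the filter only with the APAP libraries. The number of members called was 9 with genes of at least 0.1 FPKM, where 0.631% of all genes fell. It was 3 with no filter on low values (0.121% of all genes). It was 8 when a call also needed a log2 fold change of 1 or more in size (1.22% of all genes).

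In AMSC against NC, 58.8% of the members fell, where 11.9% of all genes fell, and 2.94% rose, where 14.1% of all genes rose. The median log2 fold change was -0.50, against 0.016 over all genes. The groups did not overlap for 25 members that were lower in AMSC (73.5%, against 20.3% of all genes) and for 1 that was higher, against 23.2%. Between 15 and 19 members were called with 1 library left out, and 13 calls were made in all 6 of these fits. Over all genes, 1678 to 2356 were called in these fits, against 2521 in the main one. The comparisons share libraries with each other, so their values stand side by side and are not independent of each other.

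**Figure D1:**
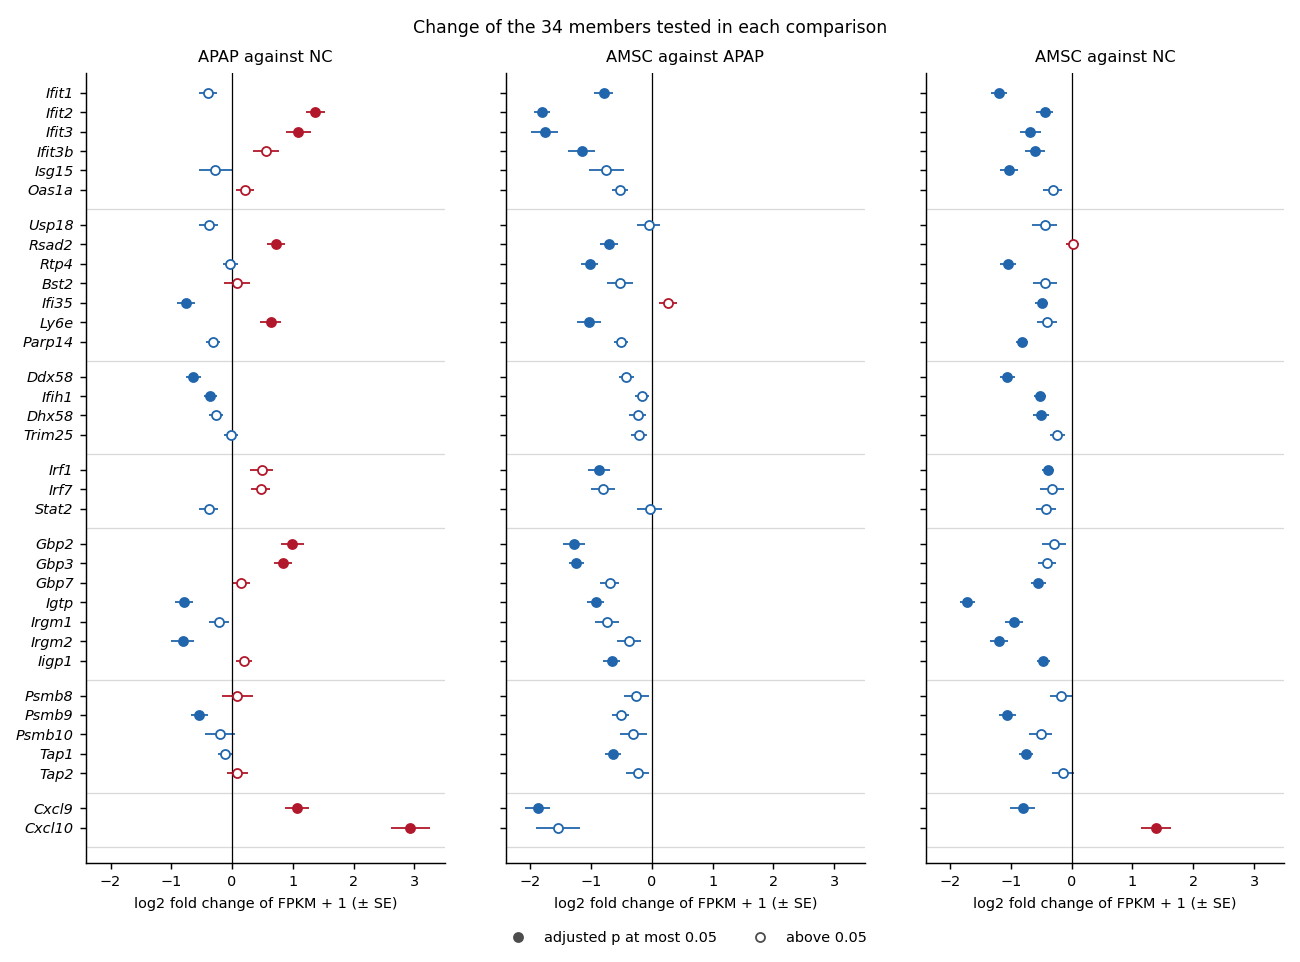
Log2 fold change of FPKM + 1 with its standard error for the 34 members tested, in APAP against NC, AMSC against APAP and AMSC against NC. Filled points passed the test (adjusted p up to 0.05), and grey lines separate the roles. Members lie on both sides of 0 in APAP against NC, 33 of 34 lie below 0 in AMSC against APAP, and Cxcl10 at 1.39 is the filled point above 0 in AMSC against NC.

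Promoters are shown for 6 members whose levels carry the comparisons below, as the 250 bases before the RefSeq start, 5′ to 3′ on the strand of the gene, in GRCm38.p6. Capitals mark matches to the ISRE core (GAAANNGAAA on either strand) and to the GAS core (TTCNNNGAA, which reads the same on both strands), and N stands for any base. Ifit1, Ifit2 and Ifit3 lie in a cluster on chromosome 19, with Ifit3b between Ifit3 and Ifit1 (chr19:34550694-34576419 for Ifit2, chr19:34583531-34588731 for Ifit3 and chr19:34640871-34650009 for Ifit1) and moved differently after APAP. Gbp3 stands for the guanylate-binding proteins, Cxcl10 was the member with the largest rise, and Irf1 encodes a factor that binds the ISRE itself.
Ifit1 (chr19:34640639-34640888, plus strand): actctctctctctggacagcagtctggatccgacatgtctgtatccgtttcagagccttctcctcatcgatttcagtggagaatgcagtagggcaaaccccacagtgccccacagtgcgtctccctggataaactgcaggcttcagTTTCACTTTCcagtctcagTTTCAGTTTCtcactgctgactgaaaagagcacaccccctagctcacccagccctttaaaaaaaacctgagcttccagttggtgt
Ifit2 (chr19:34550444-34550693, plus strand): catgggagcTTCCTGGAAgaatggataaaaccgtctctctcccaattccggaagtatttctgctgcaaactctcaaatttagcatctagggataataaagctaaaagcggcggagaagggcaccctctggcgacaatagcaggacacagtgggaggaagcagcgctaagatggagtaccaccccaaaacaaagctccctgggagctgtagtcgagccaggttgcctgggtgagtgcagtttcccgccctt
Ifit3 (chr19:34583279-34583528, plus strand): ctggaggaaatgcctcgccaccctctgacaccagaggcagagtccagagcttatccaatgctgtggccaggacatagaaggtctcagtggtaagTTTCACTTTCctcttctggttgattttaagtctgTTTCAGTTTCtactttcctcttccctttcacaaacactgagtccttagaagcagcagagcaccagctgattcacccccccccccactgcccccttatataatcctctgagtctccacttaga
Gbp3 (chr3:142559794-142560043, plus strand): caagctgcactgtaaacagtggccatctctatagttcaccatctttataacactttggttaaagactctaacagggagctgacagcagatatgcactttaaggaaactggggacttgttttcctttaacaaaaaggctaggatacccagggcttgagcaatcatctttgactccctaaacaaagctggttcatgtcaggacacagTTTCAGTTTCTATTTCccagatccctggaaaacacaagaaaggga
Cxcl10 (chr5:92348890-92349139, minus strand): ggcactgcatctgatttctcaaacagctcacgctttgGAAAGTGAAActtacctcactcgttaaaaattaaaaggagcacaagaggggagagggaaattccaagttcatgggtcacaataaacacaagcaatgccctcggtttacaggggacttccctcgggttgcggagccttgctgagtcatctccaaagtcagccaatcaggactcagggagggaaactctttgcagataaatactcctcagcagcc
Irf1 (chr11:53769764-53770013, plus strand): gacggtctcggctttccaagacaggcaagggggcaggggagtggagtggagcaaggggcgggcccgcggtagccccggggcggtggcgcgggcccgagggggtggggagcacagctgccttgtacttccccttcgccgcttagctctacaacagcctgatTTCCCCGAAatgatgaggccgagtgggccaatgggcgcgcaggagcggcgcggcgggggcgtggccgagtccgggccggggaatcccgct
RefSeq windows were at hand for 32 of the 43 members (35 windows, since Gbp3, Ifit2 and Irf1 have 2 starts each). An ISRE core lay in 17 of the 35 windows (48.57%), against 978 of 32851 windows of all genes (2.98%). A GAS core lay in 10 of the 35 (28.57%), against 2306 of all windows (7.02%). Among the GTPases 8 of 9 windows held an ISRE core and 5 a GAS core. Of the Ifit, Oas and Isg15 windows 5 of 8 held an ISRE core and 2 a GAS core. No ISRE core was found in the 4 windows of antigen processing genes or the 3 of RNA sensors. The windows of Psmb9 (chr17:34187331-34187580) and Tap1 (chr17:34187306-34187555) are mostly the same bases read on opposite strands. Matches of the 2 cores overlapped in 1 member window, that of Bst2. A match describes the letters of the window and shows no binding.

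The promoters of 4 immunity-related GTPases held both cores in the same arrangement, with the first base of the ISRE core 11 bases after the first base of the GAS core. They are printed with 10 bases on either side, because these genes did not move alike after APAP.
Igtp (chr11:58199501-58199541, plus strand): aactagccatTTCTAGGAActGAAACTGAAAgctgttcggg
Irgm2 (chr11:58214892-58214932, plus strand): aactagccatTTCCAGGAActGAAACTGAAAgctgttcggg
Tgtp1 (chr11:48992304-48992344, minus strand): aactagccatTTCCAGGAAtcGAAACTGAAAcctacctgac
Tgtp2 (chr11:49064263-49064303, minus strand): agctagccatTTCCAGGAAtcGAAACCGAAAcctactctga
This arrangement stood in 5 of 32851 windows in all, those of these 4 genes and of Gm12185. The Gm12185 model overlaps that of Tgtp1 by 6900 bases on the same strand, and their windows were not compared. The RefSeq starts of Irgm2 and Tgtp1 used here lie 15359 and 1926 bases from the deposited gene starts. The genes are paralogs with related sequence, so their windows are not independent of each other, and the arrangement was noticed in the members before it was counted.

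**Figure D2:**
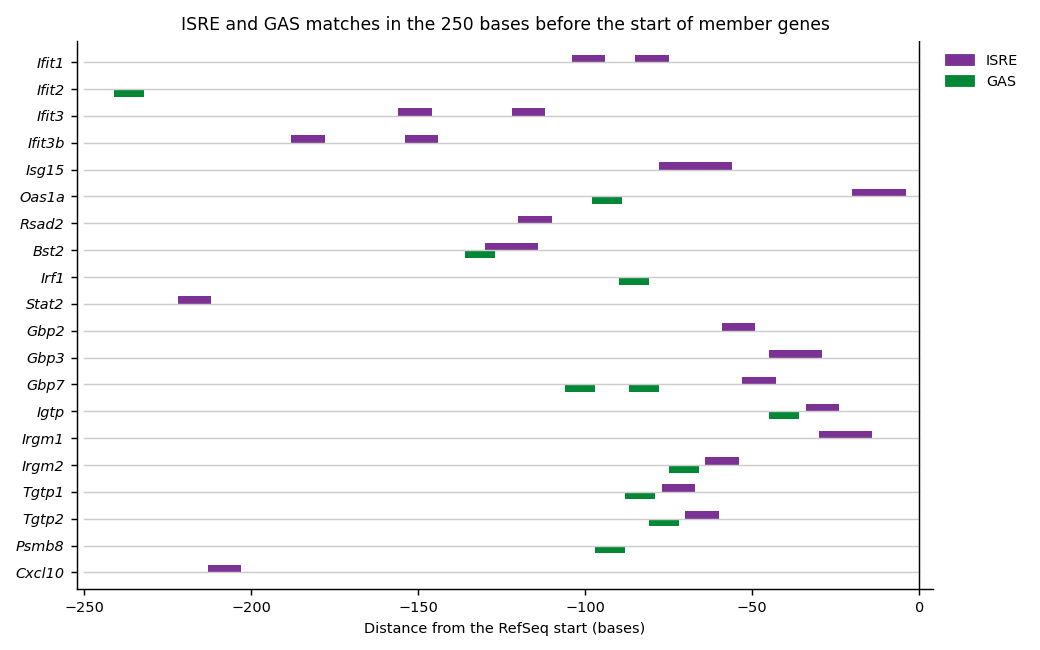
Positions of ISRE and GAS core matches in the 250 bases before the RefSeq start, in bases from the start, for the 20 members that hold any. Grey lines show the windows, and purple and green bars the matches. All matches of the GTPases (Gbp2 to Tgtp2) lie within 110 bases of the start, and Igtp, Irgm2, Tgtp1 and Tgtp2 show the same order and spacing.

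The ligands themselves were close to undetectable. Of the 15 interferon genes on the list, 11, Ifnb1 among them, had no read in any library, and the other 4 (Ifnab, Ifnk, Ifnz and Ifng) had 15 reads in total over the 9 libraries and at most 4 in one. Ifng, the gene of interferon gamma, had 3 reads, all in 1 NC library. A change in the ligands was therefore not detectable at this depth.

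Of the 6 receptor genes on the list, 4 could be tested, and the others averaged under 1 FPKM. Ifngr1, the ligand-binding chain of the interferon gamma receptor, had 4.19, 3.53 and 5.63 FPKM in NC, 8.301, 7.48 and 7.74 FPKM in APAP and 5.66, 7.54 and 7.36 FPKM in AMSC. Both treated groups lay above NC, and Ifngr1 rose in APAP against NC (0.71 ± 0.16, adjusted p = 0.0141) and in AMSC against NC (0.54 ± 0.17, adjusted p = 0.0477). Ifnar1, Ifnar2 and Ifngr2 passed the test in no comparison. Jak2, the kinase that serves the interferon gamma receptor and several cytokine receptors, had 2.19, 2.07 and 2.26 FPKM in NC, 5.16, 5.76 and 5.19 FPKM in APAP and 2.45, 2.66 and 3.24 FPKM in AMSC. All 3 APAP values exceeded the other 6, and Jak2 rose in APAP against NC (1.004 ± 0.11, adjusted p = 0.000867) and fell in AMSC against APAP (-0.75 ± 0.13, adjusted p = 0.0259). Jak1, the kinase shared by both kinds of interferon, also rose in APAP against NC and was called in neither comparison with AMSC. Of the inhibitors, Socs3, which blocks cytokine receptor kinases, had 3.77, 2.86 and 1.69 FPKM in NC, 15.2, 18.002 and 39.9 FPKM in APAP and 19.4, 19.96 and 23.2 FPKM in AMSC. It rose in APAP against NC (2.66 ± 0.36, adjusted p = 0.00225) and in AMSC against NC (2.57 ± 0.20, adjusted p = 0.000106), and Ptpn2, a phosphatase of JAK and STAT proteins, did so too (1.41 ± 0.31, adjusted p = 0.0143 and 0.97 ± 0.13, adjusted p = 0.00127).

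Of the 3 transcription factors, Irf1 was lower with AMSCs. Irf1, an ISRE-binding factor induced mainly by interferon gamma, had 4.67, 4.77 and 4.27 FPKM in NC, 7.43, 4.87 and 8.57 FPKM in APAP and 3.31, 3.39 and 3.11 FPKM in AMSC. APAP_2 lay close to NC, APAP_1 and APAP_3 well above it, and all AMSC values lay below both other groups. Irf1 fell in AMSC against APAP (-0.87 ± 0.19, adjusted p = 0.0483; 0.0143 to 0.155 with 1 library left out, above 0.05 without APAP_1, APAP_3, AMSC_2, AMSC_3 or AMSC_4) and in AMSC against NC (-0.38 ± 0.10, adjusted p = 0.0255; 0.0284 to 0.0973 with 1 library left out, above 0.05 without NC_1, NC_2, AMSC_2 or AMSC_4). In APAP against NC its log2 fold change was 0.49 ± 0.18, adjusted p = 0.0924. Irf7, the main amplifier of type I interferon production, had 8.29, 7.197 and 10.02 FPKM in NC, 10.5, 12.4 and 13.5 FPKM in APAP and 8.74, 4.83 and 6.45 FPKM in AMSC. Its APAP values lay above all others. The log2 fold change of Irf7 was 0.47 ± 0.15, adjusted p = 0.0564 in APAP against NC and -0.80 ± 0.20, adjusted p = 0.0743 in AMSC against APAP. Pairing libraries of the same number, which the labels do not describe as pairs, gave an adjusted p of 0.0341 in APAP against NC. Stat2, a transcription factor of the type I response, had 8.51, 8.899 and 8.67 FPKM in NC, 5.33, 8.26 and 5.99 FPKM in APAP and 6.05, 8.24 and 4.82 FPKM in AMSC and passed the test in no comparison.

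Of the RNA sensors, Ddx58 and Ifih1 fell in APAP against NC, and both of them and Dhx58 fell in AMSC against NC. Ddx58 (RIG-I), which detects RNA with triphosphate ends, had 3.96, 3.13 and 3.32 FPKM in NC, 1.86, 1.82 and 1.92 FPKM in APAP and 1.17, 1.32 and 0.944 FPKM in AMSC. The 3 groups did not overlap, with NC highest and AMSC lowest. It fell in APAP against NC (-0.64 ± 0.12, adjusted p = 0.0078) and in AMSC against NC (-1.06 ± 0.12, adjusted p = 0.000763), and AMSC against APAP gave -0.42 ± 0.12, adjusted p = 0.104. Ifih1 (MDA5), which detects long double-stranded RNA, had 3.73, 3.76 and 3.62 FPKM in NC, 2.51, 2.89 and 2.62 FPKM in APAP and 2.54, 2.19 and 2.11 FPKM in AMSC. NC was highest, and APAP and AMSC overlapped. It fell in APAP against NC (-0.36 ± 0.11, adjusted p = 0.0429; 0.0657 to 0.146 with 1 library left out, above 0.05 without any 1 of the 6 libraries) and in AMSC against NC (-0.52 ± 0.10, adjusted p = 0.00831). Dhx58 (LGP2), a helicase that modulates both sensors, was 1.82 to 1.998 FPKM in APAP and 1.13 to 1.71 FPKM in AMSC against 2.28 to 2.73 FPKM in NC. It fell in AMSC against NC (-0.50 ± 0.13, adjusted p = 0.0263; 0.0437 to 0.091 with 1 library left out, above 0.05 without NC_1, NC_2, NC_3 or AMSC_3). Trim25, a ubiquitin ligase of RIG-I, lay between 12.1 and 17.4 FPKM in all libraries and was not called. None of the 4 genes passed the test in AMSC against APAP.

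The Ifit genes separated most clearly among the type I effectors. IFIT proteins bind foreign RNA and block its translation. Ifit2 (ENSMUSG00000045932) had 0.702, 0.751 and 1.23 FPKM in NC, 3.89, 3.33 and 4.41 FPKM in APAP and 0.401, 0.431 and 0.322 FPKM in AMSC. All APAP values exceeded all NC values, and all AMSC values lay below NC. Its mean in APAP was 4.34 times that in NC and 10.1 times that in AMSC. Ifit2 rose in APAP against NC (1.37 ± 0.15, adjusted p = 0.00102), fell in AMSC against APAP (-1.81 ± 0.13, adjusted p = 0.00115) and fell in AMSC against NC (-0.44 ± 0.14, adjusted p = 0.0472; 0.0631 to 0.129 with 1 library left out, above 0.05 without any 1 of the 6 libraries). Ifit3, which stabilizes IFIT1 on RNA in human cells, had 4.602, 5.103 and 6.73 FPKM in NC, 9.997, 12.02 and 16.7 FPKM in APAP and 3.93, 2.29 and 2.97 FPKM in AMSC. The order of the groups was the same, and each pair of groups was separate. Ifit3 rose in APAP against NC (1.09 ± 0.20, adjusted p = 0.00795), fell in AMSC against APAP (-1.77 ± 0.22, adjusted p = 0.00812) and fell in AMSC against NC (-0.68 ± 0.18, adjusted p = 0.027; 0.0196 to 0.0783 with 1 library left out, above 0.05 without NC_2, NC_3, AMSC_3 or AMSC_4).

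Ifit1, which recognizes RNA whose cap lacks methylation, differed from its neighbours. It had 5.12, 5.399 and 6.52 FPKM in NC, 3.1999, 4.77 and 4.31 FPKM in APAP and 2.01, 2.14 and 1.603 FPKM in AMSC. NC was highest, every APAP value lay under every NC value and AMSC was lowest. The log2 fold change of Ifit1 in APAP against NC was -0.40 ± 0.16, adjusted p = 0.0985, and it fell in AMSC against APAP (-0.79 ± 0.16, adjusted p = 0.0382; 0.0186 to 0.135 with 1 library left out, above 0.05 without APAP_2, APAP_3, AMSC_2, AMSC_3 or AMSC_4) and in AMSC against NC (-1.19 ± 0.13, adjusted p = 0.000517). Ifit3b, a copy of Ifit3, had 0.989, 1.04 and 1.598 FPKM in NC, 1.901, 1.61 and 3.39 FPKM in APAP and 0.724, 0.308 and 0.333 FPKM in AMSC. Its groups did not overlap in any comparison, in the same order as for Ifit3. Its log2 fold change was 0.55 ± 0.22, adjusted p = 0.0985 in APAP against NC, where pairing the libraries of the same number gave an adjusted p of 0.0264. It fell in AMSC against APAP (-1.16 ± 0.22, adjusted p = 0.0345; 0.032 to 0.126 with 1 library left out, above 0.05 without APAP_3, AMSC_2, AMSC_3 or AMSC_4) and in AMSC against NC (-0.60 ± 0.16, adjusted p = 0.028; 0.0218 to 0.0917 with 1 library left out, above 0.05 without NC_2, NC_3, AMSC_3 or AMSC_4). Of the 100-base windows of the Ifit3 transcripts, 31.65% also occur in Ifit3b, so reads of the 2 genes can be split between them in counting.

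Isg15 fell in AMSC against NC, and none of the 3 Oas genes was called. Isg15, a ubiquitin-like protein that is attached to other proteins, had 13.6, 15.6 and 15.4 FPKM in NC, 7.99, 11.2 and 19.2 FPKM in APAP and 8.58, 6.41 and 5.54 FPKM in AMSC. APAP values spanned both sides of NC, and AMSC_2 lay above APAP_1. Isg15 fell in AMSC against NC (-1.03 ± 0.15, adjusted p = 0.00228) and was not called in the other comparisons (-0.28 ± 0.27, adjusted p = 0.484 in APAP against NC and -0.75 ± 0.29, adjusted p = 0.198 in AMSC against APAP). Oas1a, an oligoadenylate synthetase that activates RNase L, had 0.922, 0.859 and 1.48 FPKM in NC, 1.58, 1.41 and 1.22 FPKM in APAP and 0.868, 0.612 and 0.529 FPKM in AMSC. All AMSC values lay below all APAP values, without a call (-0.53 ± 0.13, adjusted p = 0.0753), and 40.87% of the windows of its transcripts also occur in Oas1g. Oas2 (0.134 to 0.586 FPKM over all libraries) and Oasl2 (0.292 to 0.785 FPKM) lay under the filter, and with genes of at least 0.1 FPKM neither was called in any comparison.

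Among the other antiviral effectors, Rsad2 and Ly6e rose with APAP and fell in AMSC against APAP, and Rtp4 fell in both comparisons with AMSC. Rsad2 (viperin), which makes a chain-terminating nucleotide, had 2.198, 2.21 and 2.13 FPKM in NC, 4.08, 5.29 and 3.52 FPKM in APAP and 2.45, 2.17 and 2.04 FPKM in AMSC. APAP stood above the rest, and NC and AMSC overlapped. Rsad2 rose in APAP against NC (0.72 ± 0.14, adjusted p = 0.00991) and fell in AMSC against APAP (-0.71 ± 0.15, adjusted p = 0.0483; 0.0681 to 0.158 with 1 library left out, above 0.05 without any 1 of the 6 libraries). Ly6e, a membrane-anchored protein that restricts the entry of some viruses, had 46.9, 49.8 and 61.03 FPKM in NC, 70.9, 77.8 and 98.3 FPKM in APAP and 45.3, 30.7 and 43.4 FPKM in AMSC. Again APAP was highest, and every AMSC value lay under every NC value. Ly6e rose in APAP against NC (0.63 ± 0.17, adjusted p = 0.0283; 0.0193 to 0.112 with 1 library left out, above 0.05 without NC_1, NC_2, APAP_2 or APAP_3) and fell in AMSC against APAP (-1.04 ± 0.19, adjusted p = 0.0343; 0.0322 to 0.098 with 1 library left out, above 0.05 without APAP_2, APAP_3, AMSC_2, AMSC_3 or AMSC_4).

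Rtp4, an interferon-induced transporter protein of the receptor transporter family, had 5.71, 5.86 and 6.73 FPKM in NC, 5.56, 5.72 and 6.599 FPKM in APAP and 2.98, 2.13 and 2.19 FPKM in AMSC. NC and APAP overlapped, and the AMSC values were under the lowest of both. Rtp4 fell in AMSC against APAP (-1.03 ± 0.14, adjusted p = 0.0118; 0.0179 to 0.063 with 1 library left out, above 0.05 without AMSC_3 or AMSC_4) and in AMSC against NC (-1.05 ± 0.13, adjusted p = 0.00103), with -0.029 ± 0.12, adjusted p = 0.876 in APAP against NC. The Rtp4 gene model spans that of Gm45338 and runs into Masp1 on the opposite strand (15.2 FPKM on average), and whether strand was used in counting was not given in the sources used here. Parp14, a transferase of ADP-ribose, had 3.19, 3.001 and 3.31 FPKM in NC, 2.12, 2.69 and 2.303 FPKM in APAP and 1.29, 1.48 and 1.32 FPKM in AMSC. The 3 groups were separate, in the order NC, APAP and AMSC, and it fell in AMSC against NC (-0.82 ± 0.10, adjusted p = 0.00109).

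Ifi35, a cytoplasmic protein induced by interferon, had 12.3, 11.4 and 13.1 FPKM in NC, 5.74, 6.77 and 8.14 FPKM in APAP and 8.71, 8.82 and 7.74 FPKM in AMSC. Ifi35 was highest in NC and fell in APAP against NC (-0.76 ± 0.14, adjusted p = 0.00788) and in AMSC against NC (-0.49 ± 0.10, adjusted p = 0.0111), and APAP and AMSC overlapped. Usp18, which removes ISG15 from proteins and damps type I signalling, ranged from 1.79 to 4.66 FPKM and was not called. Bst2 (tetherin), which holds budding viruses at the cell surface, was the most abundant member, with 82.6 to 195 FPKM, and was not called either. Xaf1 (0.369 to 1.22 FPKM) and Ifi44 (0.0879 to 0.631 FPKM) were under the filter. With genes of at least 0.1 FPKM, Ifi44 fell in AMSC against NC (log2 fold change -0.23, adjusted p = 0.046), and Xaf1 was called in no comparison.

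The GTPases inducible by interferon gamma did not move alike after APAP, where Gbp2 and Gbp3 rose and Igtp and Irgm2 fell. Guanylate-binding proteins assemble on the membranes of intracellular pathogens. Gbp2 had 0.643, 0.689 and 1.45 FPKM in NC, 3.29, 2.92 and 2.19 FPKM in APAP and 0.425, 0.917 and 0.3702 FPKM in AMSC. The APAP values were all above the rest, and NC and AMSC overlapped. Gbp2 rose in APAP against NC (0.99 ± 0.19, adjusted p = 0.00954) and fell in AMSC against APAP (-1.28 ± 0.18, adjusted p = 0.0127; 0.0213 to 0.0593 with 1 library left out, above 0.05 without AMSC_2 or AMSC_4). Gbp3 (ENSMUSG00000028268, chr3:142560026-142573209) had 0.973, 1.22 and 1.797 FPKM in NC, 2.79, 3.31 and 3.28 FPKM in APAP and 0.791, 0.848 and 0.591 FPKM in AMSC. Its 3 groups were separate, with APAP highest and AMSC lowest. It rose in APAP against NC (0.84 ± 0.16, adjusted p = 0.00787) and fell in AMSC against APAP (-1.24 ± 0.12, adjusted p = 0.00473), and in AMSC against NC it was -0.41 ± 0.15, adjusted p = 0.0866. Gbp7 had 1.45, 1.32 and 1.16 FPKM in NC, 1.86, 1.68 and 1.17 FPKM in APAP and 0.763, 0.439 and 0.545 FPKM in AMSC. Here NC and APAP overlapped and AMSC was below both. Gbp7 fell in AMSC against NC (-0.55 ± 0.12, adjusted p = 0.0141; 0.0186 to 0.0563 with 1 library left out, above 0.05 without NC_1 or NC_2), and AMSC against APAP gave -0.69 ± 0.15, adjusted p = 0.0505.

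The low guanylate-binding proteins on chromosome 5 were also highest in APAP. Gbp4 had 0.128, 0.116 and 0.279 FPKM in NC, 1.01, 1.66 and 0.933 FPKM in APAP and 0.176, 0.175 and 0.133 FPKM in AMSC. Tested with genes of at least 0.1 FPKM, Gbp4 rose in APAP against NC (log2 fold change 0.90, adjusted p = 0.0118) and fell in AMSC against APAP (-0.91, adjusted p = 0.0442), a call that was lost with no filter on low values (adjusted p = 0.113). Gbp6 had 0.171, 0.253 and 0.303 FPKM in NC, 0.563, 0.583 and 0.525 FPKM in APAP and 0.211, 0.0517 and 0.0782 FPKM in AMSC. In that fit Gbp6 rose in APAP against NC (0.33, adjusted p = 0.0292), and AMSC against APAP gave -0.49, adjusted p = 0.0575. Gbp9 (0.270 to 1.56 FPKM) was not called. The models of Gbp4, Gbp8 and Gbp9 overlap on the same strand, and 64.49% of the windows of Gbp6 occur in another gene, so these low counts can be shared out among copies.

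The immunity-related GTPases act on the vacuoles of pathogens, and regulators among them protect the membranes of the host. Igtp (ENSMUSG00000078853, chr11:58199556-58207591), one of these regulators, had 16.5, 15.4 and 19.9996 FPKM in NC, 10.9, 9.38 and 8.46 FPKM in APAP and 4.05, 5.06 and 4.57 FPKM in AMSC. The groups formed 3 separate steps downwards. The mean in NC was 3.79 times that in AMSC. Igtp fell in APAP against NC (-0.79 ± 0.15, adjusted p = 0.00764), in AMSC against APAP (-0.93 ± 0.14, adjusted p = 0.017; 0.0251 to 0.0727 with 1 library left out, above 0.05 without AMSC_2 or AMSC_4) and in AMSC against NC (-1.71 ± 0.13, adjusted p = 8.75e-05). Irgm2, another regulator, had 12.6, 9.496 and 10.7 FPKM in NC, 7.86, 5.09 and 4.698 FPKM in APAP and 3.84, 5.13 and 3.71 FPKM in AMSC. NC was above the rest, and APAP and AMSC overlapped. It fell in APAP against NC (-0.81 ± 0.19, adjusted p = 0.0189; 0.00371 to 0.0726 with 1 library left out, above 0.05 without NC_1, APAP_2 or APAP_3) and in AMSC against NC (-1.19 ± 0.15, adjusted p = 0.000996). The deposited Irgm2 model begins inside that of Igtp and overlaps it by 7974 bases on the same strand, so reads there can count for either.

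Irgm1, the third regulator, had 9.36, 10.5 and 10.6 FPKM in NC, 10.4, 6.56 and 9.25 FPKM in APAP and 4.64, 6.02 and 3.802 FPKM in AMSC. Only AMSC stood apart, below both other groups. Irgm1 fell in AMSC against NC (-0.95 ± 0.15, adjusted p = 0.00299), and AMSC against APAP gave -0.74 ± 0.20, adjusted p = 0.093. Iigp1, an effector that disrupts parasite vacuoles and the most abundant GTPase of the set, had 74.5, 67.4 and 74.4 FPKM in NC, 94.3, 72.9 and 82.5 FPKM in APAP and 54.2, 54.03 and 47.7 FPKM in AMSC. NC and APAP overlapped, and AMSC lay below both. It fell in AMSC against APAP (-0.66 ± 0.14, adjusted p = 0.0456; 0.0538 to 0.157 with 1 library left out, above 0.05 without any 1 of the 6 libraries) and in AMSC against NC (-0.47 ± 0.10, adjusted p = 0.0139; 0.0227 to 0.0603 with 1 library left out, above 0.05 without NC_1 or AMSC_4). The paralogs Tgtp1 and Tgtp2, effectors whose promoter stretches stand above, differed. Tgtp2 had 0.224, 0.138 and 0.396 FPKM in NC, 1.65, 1.37 and 1.37 FPKM in APAP and 0.171, 0.288 and 0.181 FPKM in AMSC. With genes of at least 0.1 FPKM it rose in APAP against NC (0.98, adjusted p = 0.00453) and fell in AMSC against APAP (-1.02, adjusted p = 0.0179), whereas Tgtp1 (0.236 to 0.698 FPKM) was not called in any comparison (0.032, adjusted p = 0.854 in APAP against NC). Since 76.79% of the windows of Tgtp2 also occur in another gene, mostly Tgtp1, the division of reads between the 2 is uncertain.

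**Figure D3:**
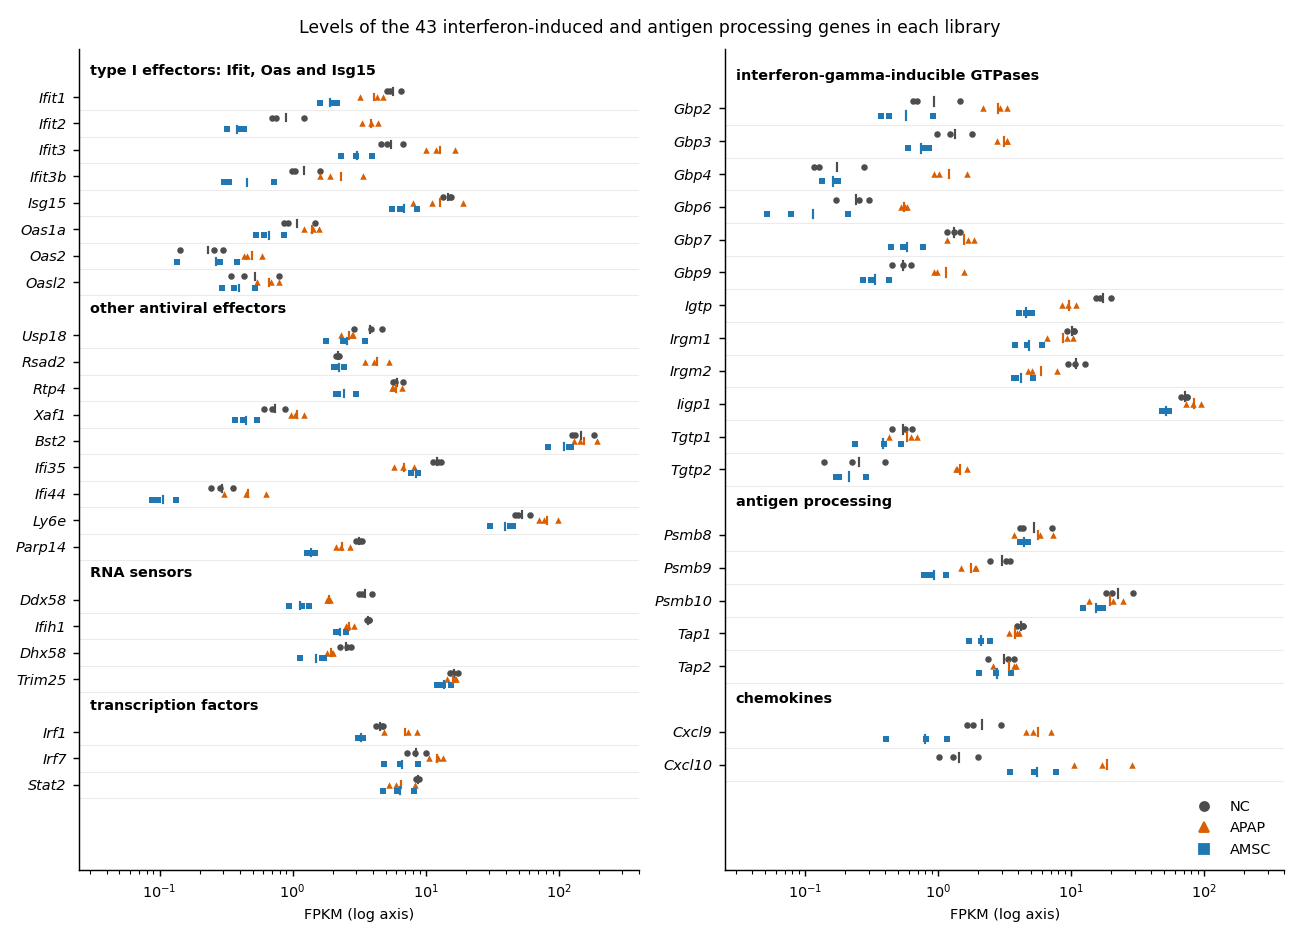
FPKM of each of the 43 members in each library on a log axis, with NC as grey circles, APAP as orange triangles and AMSC as blue squares, and short vertical bars at the group means. The blue squares are furthest left for most genes, the orange triangles are furthest right for Ifit2, Ifit3, Gbp2 to Gbp6, Tgtp2, Cxcl9 and Cxcl10, and the grey circles are furthest right for Igtp, Irgm2, Ddx58 and Psmb9.

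Of the antigen processing genes, Psmb9 and Tap1 changed and the rest did not pass the test. Psmb9, a catalytic subunit that replaces Psmb6 in the immunoproteasome, had 2.44, 3.45 and 3.22 FPKM in NC, 1.49, 1.896 and 1.91 FPKM in APAP and 1.15, 0.778 and 0.873 FPKM in AMSC. NC, APAP and AMSC followed each other downwards without overlap. Psmb9 fell in APAP against NC (-0.54 ± 0.14, adjusted p = 0.0282; 0.0337 to 0.115 with 1 library left out, above 0.05 without NC_2, NC_3, APAP_1 or APAP_2) and in AMSC against NC (-1.06 ± 0.14, adjusted p = 0.00135), and AMSC against APAP gave -0.52 ± 0.13, adjusted p = 0.0816. Tap1, a chain of the transporter that carries peptides to MHC class I molecules, had 4.32, 4.31 and 3.89 FPKM in NC, 3.39, 4.05 and 3.93 FPKM in APAP and 2.45, 1.69995 and 2.11 FPKM in AMSC. NC and APAP overlapped, and AMSC was below both. Tap1 fell in AMSC against APAP (-0.64 ± 0.14, adjusted p = 0.0484; 0.0533 to 0.157 with 1 library left out, above 0.05 without any 1 of the 6 libraries) and in AMSC against NC (-0.75 ± 0.12, adjusted p = 0.00352). The 2 genes lie head to head on chromosome 17 and their models overlap by 212 bases on opposite strands. No ISRE or GAS core was found in their windows, which are mostly the same bases. Tap2, the other transporter chain, ranged from 2.01 to 3.88 FPKM and was not called.

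The inducible subunits were also set against the constitutive subunits whose places they take, which sets aside a change that both share. The ratio of Psmb9 to Psmb6 was 4.24%, 6.25% and 5.51% in NC, 3.36%, 3.15% and 2.92% in APAP and 1.78%, 1.31% and 1.37% in AMSC. The groups were separate in each comparison, with means of 5.33% ± 1.02, 3.14% ± 0.220 and 1.49% ± 0.252 (SD, n = 3). The ratio of Psmb8 to Psmb5 was 4.66%, 4.99% and 6.79% in NC, 5.66%, 7.13% and 7.42% in APAP and 4.47%, 3.88% and 3.896% in AMSC. AMSC lay below both other groups here. In 2-sided exact permutation tests of the log2 ratio, p was 0.1 for all 3 comparisons of Psmb9 to Psmb6. For Psmb8 to Psmb5 the exact permutation p was 0.2 in APAP against NC and 0.1 in both comparisons with AMSC, and 0.1 is the smallest p that 3 against 3 libraries can give. Psmb10 to Psmb7 ranged from 49.8% to 70.9% in AMSC, from 69.97% to 104% in APAP and from 81.6% to 109% in NC, with exact permutation p of 0.8 in APAP against NC, 0.2 in AMSC against APAP and 0.1 in AMSC against NC. As single genes, Psmb8 (3.73 to 7.26 FPKM), Psmb10 (12.3 to 28.97 FPKM), Psmb5, Psmb6 and Psmb7 were called in no comparison. The log2 fold changes of the 3 constitutive subunits were negative in APAP against NC (-0.21 to -0.028). They were positive in AMSC against APAP (0.16 to 0.41) and in AMSC against NC (0.085 to 0.20). In AMSC against APAP Psmb8 alone gave -0.26 ± 0.20, adjusted p = 0.53, and its log2 ratio to Psmb5 gave -0.72. The lower ratios with AMSCs therefore also hold higher denominators.

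**Figure D4:**
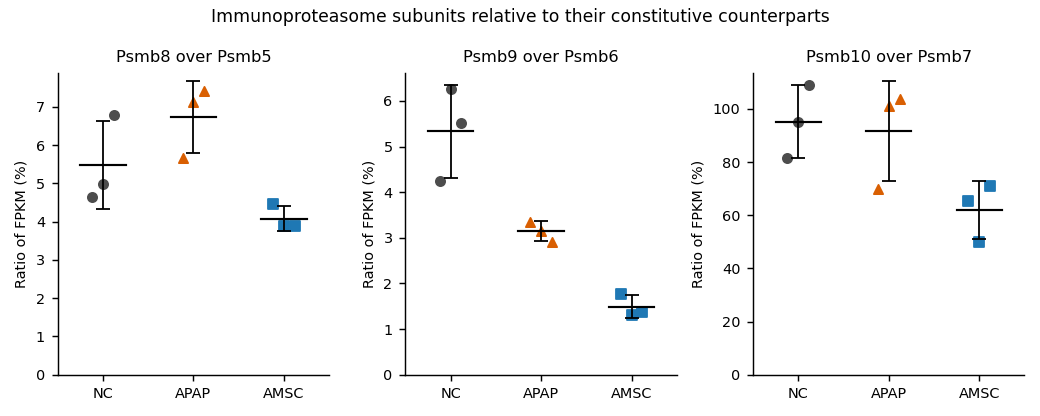
FPKM of the inducible subunits Psmb8, Psmb9 and Psmb10 as a percentage of the constitutive subunits Psmb5, Psmb6 and Psmb7 in each library, with means and SD as black lines. Psmb9 over Psmb6 steps down without overlap from 4.24 to 6.25% in NC to 1.31 to 1.78% in AMSC, and for Psmb8 over Psmb5 the AMSC libraries lie lowest, at 3.88 to 4.47%.

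Of the members tested, Cxcl10 had the largest log2 fold change of FPKM + 1 in APAP against NC and Cxcl9 the largest in size in AMSC against APAP. By mean FPKM, Ifit2 exceeded Cxcl9 there, with APAP at 10.1 times AMSC, against 7.01 times for Cxcl9. Cxcl10, a ligand of CXCR3 that attracts activated T cells and is induced by both kinds of interferon and by NF-kappaB, is encoded at chr5:92346638-92348889. It had 1.01, 1.28 and 1.99 FPKM in NC, 10.5, 17.02 and 28.4 FPKM in APAP and 7.69, 3.48 and 5.29 FPKM in AMSC. The groups did not overlap, and AMSC lay between NC and APAP. Its mean in APAP was 13.05 times that in NC. Cxcl10 rose in APAP against NC (2.93 ± 0.32, adjusted p = 0.000988) and in AMSC against NC (1.39 ± 0.25, adjusted p = 0.00516), and AMSC against APAP gave -1.54 ± 0.36, adjusted p = 0.0598. Cxcl9, a ligand of the same receptor that depends more on interferon gamma, had 1.83, 1.65 and 2.97 FPKM in NC, 7.07, 4.55 and 5.16 FPKM in APAP and 1.17, 0.408 and 0.816 FPKM in AMSC. APAP was above the rest and AMSC was lowest. Cxcl9 rose in APAP against NC (1.07 ± 0.20, adjusted p = 0.00823), fell in AMSC against APAP (-1.88 ± 0.20, adjusted p = 0.00643) and fell in AMSC against NC (-0.81 ± 0.21, adjusted p = 0.0231; 0.0234 to 0.0628 with 1 library left out, above 0.05 without NC_3, AMSC_3 or AMSC_4).

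The type I effectors and the targets of interferon gamma can be set side by side by their median log2 fold changes over the genes tested. In APAP against NC the median was 0.38 for the Ifit and Oas genes and Isg15 (6 tested, 2 rose and none fell), 0.15 for the GTPases (7 tested, 2 rose and 2 fell) and -0.11 for antigen processing (5 tested, 1 fell). In AMSC against APAP the medians were -0.98 (4 fell), -0.74 (4 fell) and -0.31 (1 fell). In AMSC against NC they were -0.64 (5 fell), -0.55 (5 fell) and -0.51 (2 fell). The 5 GTPases and 2 Oas genes under the filter are not in these medians, and Gbp4, Gbp6 and Tgtp2 among them rose in APAP against NC with genes of at least 0.1 FPKM, as given above. Ifit2, Ifit3b, Oas1a, Gbp2 and Gbp7, which are in these medians, reached 1 FPKM only with the APAP libraries. Without them, APAP against NC left Ifit1 (-0.40), Ifit3 (1.09) and Isg15 (-0.28) of the first role. Of the GTPases it left Gbp3 (0.84), Igtp (-0.79), Irgm1 (-0.21), Irgm2 (-0.81) and Iigp1 (0.20). The middle values were then negative in both roles, so the sign and order of these 2 medians rest on the genes set aside. The difference between the roles was not tested.

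Markers of several cell types differed between the groups too, and those of hepatocytes were mixed in AMSC against APAP. Of these 7, 4 were lower there and 3 were not. All AMSC values lay under all APAP values for Alb (-0.43), and above them for Tat (0.84) and Fgb (0.72), without a call. The median log2 fold change of the hepatocyte markers was -0.013 in AMSC against APAP, where that of the members was -0.68. In AMSC against NC it was 0.21, against -0.50 for the members. The summed level of 8 Kupffer cell and macrophage markers was 54.8 to 110 FPKM in NC, 81.9 to 201 FPKM in APAP and 45.5 to 73.6 FPKM in AMSC, and no marker was at 0 in all libraries. Of the 8, which were all lower in AMSC than in APAP, Cd68 passed the test (-1.24 ± 0.21, adjusted p = 0.0267). Cd68 also rose in APAP against NC (1.38 ± 0.21, adjusted p = 0.00337). The lowest APAP sum, that of APAP_2, lay within the range of NC. The 7 sinusoidal endothelial markers summed to 22.6 to 49.8 FPKM in NC, 25.01 to 74.3 FPKM in APAP and 22.2 to 24.4 FPKM in AMSC. None of the 7 was called, and all 7 had a negative log2 fold change in AMSC against APAP. The 8 neutrophil markers summed to 0.330 to 1.91 FPKM, 7.52 to 34.8 FPKM and 4.24 to 5.998 FPKM. T and NK cell markers (13, at 0.685 to 3.51 FPKM in sum) and plasmacytoid dendritic cell markers (5, at 0.319 to 0.802 FPKM) were low in all groups. The 7 hepatocyte markers, among them Alb and Apoa1, summed to 39384 to 42632 FPKM in NC, 56394 to 66195 FPKM in APAP and 51553 to 53831 FPKM in AMSC, without overlap. Of these, Alb, Apoa1 and Fgb rose in APAP against NC, and Apoa1, Tat and Fgb rose in AMSC against NC. The part of these cell types in the changes of the members was not tested.

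**Figure D5:**
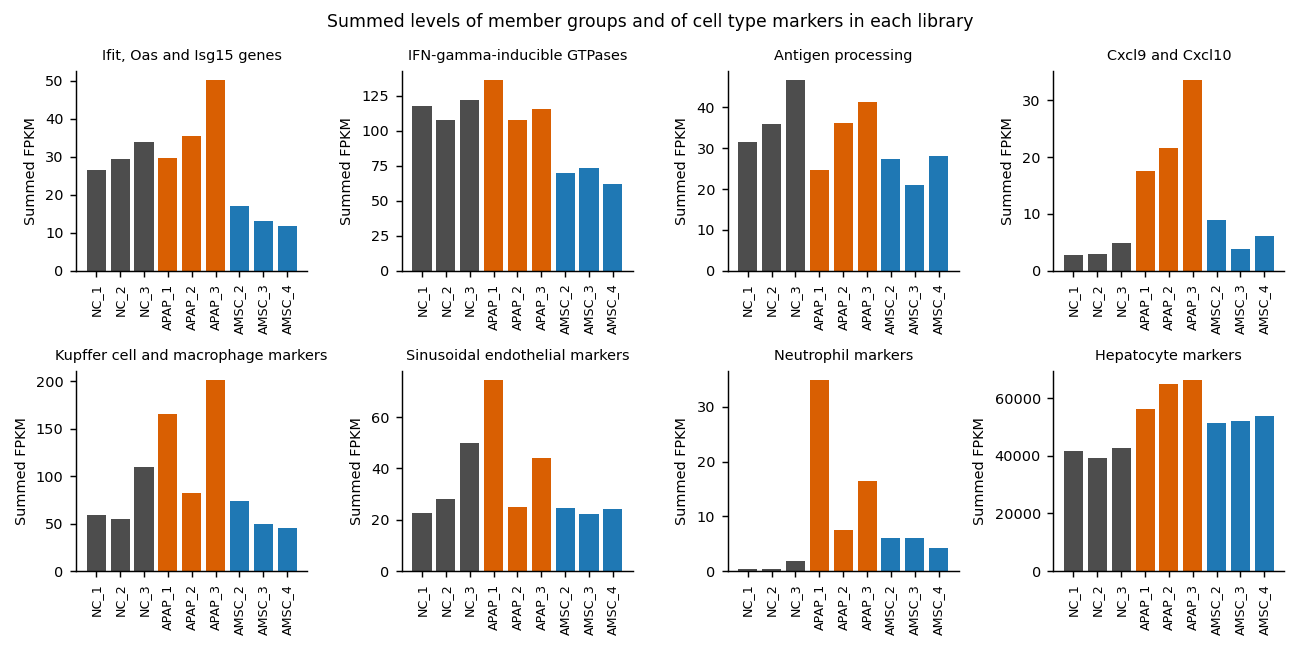
Summed FPKM in each library for 4 groups of members (top) and 4 lists of cell type markers (bottom), with NC in grey, APAP in orange and AMSC in blue. Sums of the Ifit, Oas and Isg15 genes and of the GTPases are lowest in the 3 AMSC libraries, and the Kupffer cell sum is highest in APAP_1 and APAP_3, with APAP_2 at 81.9.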

How the data were processed

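Total RNA of 9 mouse livers (3 NC, 3 APAP, 3 AMSC) was sequenced by the authors, with SMARTER mRNA-Seq libraries. The authors deposited FPKM values per gene with gene lengths and coordinates. The submitters' processing notes name GRCm38 and mm10, and the aligner, the counting program and its strand setting are not given in the sources used here. Whole reads could be recovered from FPKM and gene length for 100% of the values above 0 (within 0.1 read), and 1 read on a gene of 1 kilobase was worth 0.0578 to 0.0807 FPKM. The scaling between libraries followed median-of-ratios size factors. Groups and replicate numbers came from the sample labels. The title of NC_3 carries another date than the rest and numbers it 1, so its number for pairing rests on its description, and calls without NC_3 are among the alternatives.

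Log2 of FPKM + 1 was fitted by limma 3.58.1 (R 4.3.3; lmFit, then eBayes with its trend option) for 9699 genes averaging 1 FPKM or more over the 9 libraries, with 2 groups per fit and no covariate. Benjamini-Hochberg adjustment ran over all genes fitted, and a call needed an adjusted p up to 0.05. The script was tested on simulated data. Same-numbered libraries of APAP and NC deviated together from their group means (correlations of 0.213, 0.160 and 0.378), so a fit with the replicate number as a block stands beside the results it changes. The labels describe no pairing of the mice, so that fit does not replace the main one. Other alternatives were another pseudocount, other filters, quantile normalization, median-of-ratios rescaling, all libraries in 1 fit, voom on the recovered reads (2616, 464 and 2705 genes called in the 3 comparisons), a minimum fold change for a call, and each library left out in turn. Ratios of proteasome subunits were tested with exact permutation tests in scipy 1.17.1. Figures were drawn with matplotlib 3.10.9 in Python 3.11.15.

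Shared 100-base windows were counted over the transcripts of GENCODE vM21, and promoters came from RefSeq (GRCm38.p6). All 43 members, the receptors, kinases, inhibitors and constitutive proteasome subunits of a list of 106 further genes, and its called genes were to be named, and not all of the latter are, since 1 gene of that list is not reported here and others were left out for length. The members, lists and roles were chosen with earlier results of these data known.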

Additional observations from a re-analysis of the deposited data

How the results depend on the processing

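When a call also needed a log2 fold change of 1 or more in size, 4 members were called in APAP against NC, 8 in AMSC against APAP and 8 in AMSC against NC. Of all 9699 genes, 766, 190 and 583 were called then. With genes of at least 5 FPKM, where 15 members are tested, the numbers were 6, 4 and 8, against 1318, 178 and 1509 of all 4935 genes. In AMSC against APAP 9 were called with genes of at least 0.1 FPKM (157 of all 15542 genes) and 3 with no filter (53 of all 24849 genes). A pseudocount of 0.1 FPKM, quantile normalization, all 9 libraries in 1 fit and voom on recovered reads kept each count within 1.5 times. The deposited FPKM already carried median-of-ratios scaling, so rescaling moved nothing and tests nothing. Leaving out 1 library gave 11 to 13, 4 to 11 and 15 to 19 members. Of all 9699 genes it gave 1353 to 2749, 100 to 366 and 1678 to 2356.

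The replicate block changed the call of Ifit3b and Irf7 in APAP against NC, in both cases to a rise, and of no other member there (16 called in place of 14). In the comparisons with AMSC only numbers 2 and 3 are shared, and same-numbered libraries did not deviate together (-0.104 and -0.293 against APAP, -0.199 and -0.309 against NC), so they share only a number. The block then left 9 members called in AMSC against APAP and 9 in AMSC against NC. Over all genes it called 3106 in APAP against NC, 389 in AMSC against APAP and 846 in AMSC against NC. The main fits called 2514, 367 and 2521.

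No called member changed its direction in any alternative. Members that were not called changed sign as follows. With quantile normalization Bst2 was -0.18 in APAP against NC and Rsad2 was -0.0054 in AMSC against NC, and with the block Usp18 was 0.044 and Stat2 was 0.0041 in AMSC against APAP. With 1 library left out, APAP against NC gave -0.060 to 0.043 for Trim25, -0.098 to 0.30 for Psmb8, -0.053 to 0.22 for Tap2, -0.088 to 0.25 for Bst2, -0.094 to 0.034 for Rtp4 and -0.37 to 0.028 for Psmb10. AMSC against APAP gave -0.24 to 0.11 for Usp18 and -0.21 to 0.12 for Stat2, and AMSC against NC gave -0.30 to 0.045 for Psmb8, -0.036 to 0.056 for Rsad2 and -0.29 to 0.0040 for Tap2. The cause was not tested. Counting all values, these included, 682 of 759 under the alternatives without median-of-ratios rescaling kept direction and side of the threshold. With 1 library left out, 499 of 612 did. Values near 0.1 FPKM rest on few reads, which limits the precision of the lowest members.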

Other observations

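Of the 106 other genes of the interferon and antigen processing pathways on the list, 61 could be tested. In APAP against NC 11 rose and 12 fell, in AMSC against APAP none rose and 9 fell, and in AMSC against NC 5 rose and 19 fell, with medians of 0.04, -0.16 and -0.16. In APAP against NC these were 18.03% and 19.67% (12.8% and 13.1% of all genes), in AMSC against APAP 14.75% fell (2.14% of all genes), and in AMSC against NC 8.197% rose and 31.15% fell (14.1% and 11.9% of all genes). Irf8, Ifi203, Trim30a and Gm12250 reached the mean of 1 FPKM only with the APAP libraries. All 4 were among the 9 that fell in AMSC against APAP, and Irf8 and Ifi203 were among the 11 that rose in APAP against NC. These 2 shares therefore rest in part on the filter. The 9 that fell in AMSC against APAP were Jak2, Irf5, Irf8, Ifi47, Ifi203, Ifi204, Cmpk2, Trim30a and Gm12250. Ifi203 and Ifi204, members of a family of DNA-binding proteins induced by interferon, rose in APAP against NC and fell in AMSC against APAP. Ifi204 had 0.858, 0.958 and 1.58 FPKM in NC, 3.601, 4.26 and 4.18 FPKM in APAP and 1.41, 1.15 and 1.27 FPKM in AMSC. The values were 1.25 ± 0.16, adjusted p = 0.00166 in APAP against NC and -1.14 ± 0.12, adjusted p = 0.00578 in AMSC against APAP. Irf8, a transcription factor of macrophages and dendritic cells, had 0.552, 0.631 and 0.799 FPKM in NC, 2.56, 1.92 and 2.98 FPKM in APAP and 1.01, 0.883 and 1.02 FPKM in AMSC, and it rose and fell in the same comparisons (1.06 ± 0.15, adjusted p = 0.00275 and -0.81 ± 0.14, adjusted p = 0.0292).

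Oasl1, Parp9 and Dtx3l were lower in both treated groups. Oasl1, which restrains the translation of Irf7, had 7.47, 7.07 and 7.29 FPKM in NC, 2.06, 4.83 and 3.94 FPKM in APAP and 2.1003, 2.21 and 2.04 FPKM in AMSC. It fell in APAP against NC (-0.90 ± 0.22, adjusted p = 0.0238) and in AMSC against NC (-1.41 ± 0.096, adjusted p = 5.15e-05). Parp9 and Dtx3l, which form a complex and are neighbours in the genome, fell in APAP against NC (-0.92 ± 0.19, adjusted p = 0.0124 and -1.32 ± 0.24, adjusted p = 0.00692) and in AMSC against NC (-0.81 ± 0.15, adjusted p = 0.00649 and -0.88 ± 0.23, adjusted p = 0.0268). Mavs, the adaptor of RIG-I and MDA5 on mitochondria, had 28.7, 27.8 and 23.3 FPKM in NC, 17.2, 15.5 and 14.6 FPKM in APAP and 19.1, 22.5 and 24.5 FPKM in AMSC. Mavs fell in APAP against NC (-0.72 ± 0.13, adjusted p = 0.00715), its AMSC values overlapped those of NC, and AMSC against APAP gave 0.45 ± 0.14, adjusted p = 0.119.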
